A study of Mus musculus with 4 samples.

Results

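The 56 genes described here encode cytokines and chemokines: 18 interleukins, 7 growth factor cytokines, 6 members of the tumour necrosis factor family, 2 interferons, 3 transforming growth factors beta and 20 chemokines. They were chosen by gene symbol from the 18193 genes that the array reads with a probe set of 1 symbol, and all 56 had at least 1 such probe set, 84 in all. The rule uses symbols and no signal, though the list was drawn up with earlier results of these data known. Each gene is given by the probe set with the highest mean signal over the arrays, and 33 of the 56 (against 69.2% of all genes) had a mean at or above the median of all probe sets, a log2 signal of 3.138. Only those 33, out of 12585 such genes, enter the counts and medians below.

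Total RNA came from cells labelled MC/9, a mouse mast cell line. The labels give liver of a (B6 X A/J)F1 background as its origin and an age of 13 days. The cells were grown in medium with a rat T cell culture supplement. The groups were BER+DNP (berberine at 10 microM with 500 microg/ml of an IgE antibody against DNP), BER (the berberine dose alone), DNP (the antibody dose alone) and control (no treatment), with 1 Affymetrix mouse expression array each. For the 3 treated groups the labels give 24 h of treatment and then 6 h of culture. No times are labelled for the control, and no antigen is named that would crosslink the antibody. With 1 array per group there is no replicate error and no test was run, so every difference below describes a pair of arrays. In RNA from a whole culture, fewer cells of a type and less RNA per cell cannot be told apart.

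Cytokines and chemokines are small secreted or membrane-held proteins through which cells direct each other's growth, survival and movement. Mast cells keep some of them, such as TNF, in granules, and make many more by new transcription once IgE on the receptor FceRI is crosslinked. NF-kB, AP-1 and NFAT are the transcription factors best known for switching these genes on, and berberine is a plant alkaloid studied for anti-inflammatory effects in such cells.

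Among the 33 genes, the DNP array stood apart by small amounts in 1 direction. Of the 33 genes, 25 (75.8%) read higher in BER+DNP than in DNP, against 45.4% of all genes, and their median log2 difference was 0.14, against -0.02 for all genes. In DNP against control, 22 of the 33 (66.7%) lay below 0, against 45.4% of all genes, with medians of -0.06 and 0.02. Both comparisons use the same DNP array, so they are not independent of each other. That array held the lowest of the 4 signals for 16 of the 33 genes, where it did so for 22.6% of all genes, and the highest for 2 of the 33, where it did so for 29.5%. The lowest signal was on the BER+DNP array for 5 genes, on BER for 6 and on control for 6, where all genes gave 23.6%, 26.9% and 27%. The highest was on BER+DNP for 12 genes, on BER for 10 and on control for 9, where all genes gave 20.8%, 25.2% and 24.6%. Single genes differed by little: 1 of the 33, Tgfb1, was at least 1.5-fold apart in BER+DNP against DNP, where 1.21% of all genes were, 0.699% on the lower side.

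In BER against control, 19 of the 33 genes lay above 0 (57.6%, against 48.9% of all genes), with a median of 0.02, and 0 were 1.5-fold apart, where 1.99% of all genes were. In BER+DNP against BER, 20 of the 33 lay above 0 (60.6%, against 48.8%), with a median of 0.04, and 0 were 1.5-fold apart, where 0.914% of all genes were. In DNP against control, 0 of the 33 passed 1.5-fold, where 1.43% of all genes did. Of the 33, 15 lay above 0 in both berberine comparisons, where 25.4% of all genes did, and 4 below 0 in both, where 29.7% did; these comparisons share no array. The 4 genes below 0 in both were Lif, Tnfsf11, Tgfb1 and Tgfb3. For the 2 antibody comparisons, 8 of the 33 lay above 0 in both and 10 below 0 in both, where 29.4% and 26% of all genes did.

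**Figure D1:**
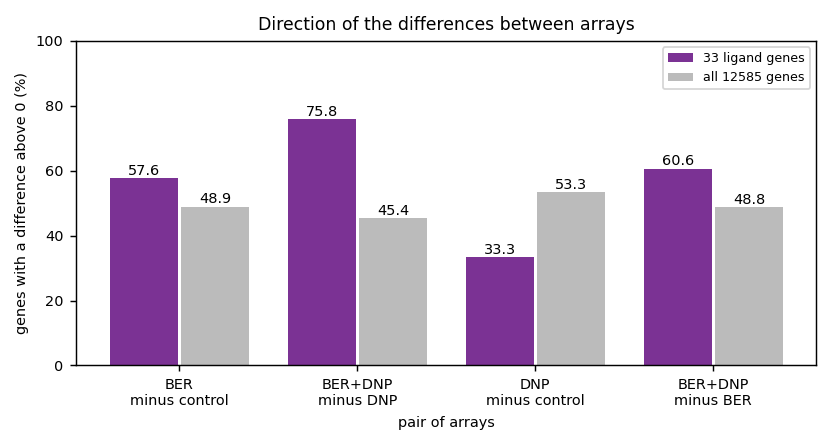
Share of genes with a log2 difference above 0 in each pair of arrays, for the 33 ligand genes (purple) and all 12585 genes at or above the array median (grey); 1 array per group, so bars have no error. The ligand share is 75.8% in BER+DNP minus DNP and 33.3% in DNP minus control, where all genes give 45.4% and 53.3%.

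The transforming growth factors beta are secreted in a latent form and, once released from it, restrain many immune cells. Tgfb1 had log2 signals of 5.06 in BER+DNP, 5.25 in BER, 5.80 in DNP and 5.58 in control. Both berberine arrays read below both arrays without berberine. The difference was -0.74 in BER+DNP against DNP, a 1.67-fold lower signal, and -0.33 without the antibody, where BER is set against control, and the difference of these 2 differences was -0.41. BER+DNP lay -0.52 from control. A second Tgfb1 probe set went the other way in the combined treatment: its signals were 4.09 in BER+DNP, 3.99 in BER, 3.81 in DNP and 4.09 in control, which gave 0.28 with the antibody present and -0.10 without it. Taking the median of both probe sets moved the BER+DNP minus DNP value to -0.23, and adding 32 to the linear signals moved it to -0.42, so under either choice Tgfb1 was no longer 1.5-fold apart.

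The control probe sets for beta-actin also read lower on both berberine arrays. At the 5' end of that transcript the difference was -0.59 in BER+DNP against DNP and -0.57 in BER against control, and at the 3' end it was -0.22 and -0.31, while those for Gapdh stayed between -0.08 and 0.12 in these comparisons. The part that RNA quality or labelling plays in the berberine differences of Tgfb1 and Lif was not tested. Tgfb3, a relative of Tgfb1, read 3.45 in BER+DNP, 3.43 in BER, 3.60 in DNP and 3.55 in control. It too was lower on both berberine arrays, by -0.15 and -0.12, but these differences are small beside those of Tgfb1. Tgfb2 was below the array median, with signals between 2.43 and 2.91.

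**Figure D2:**
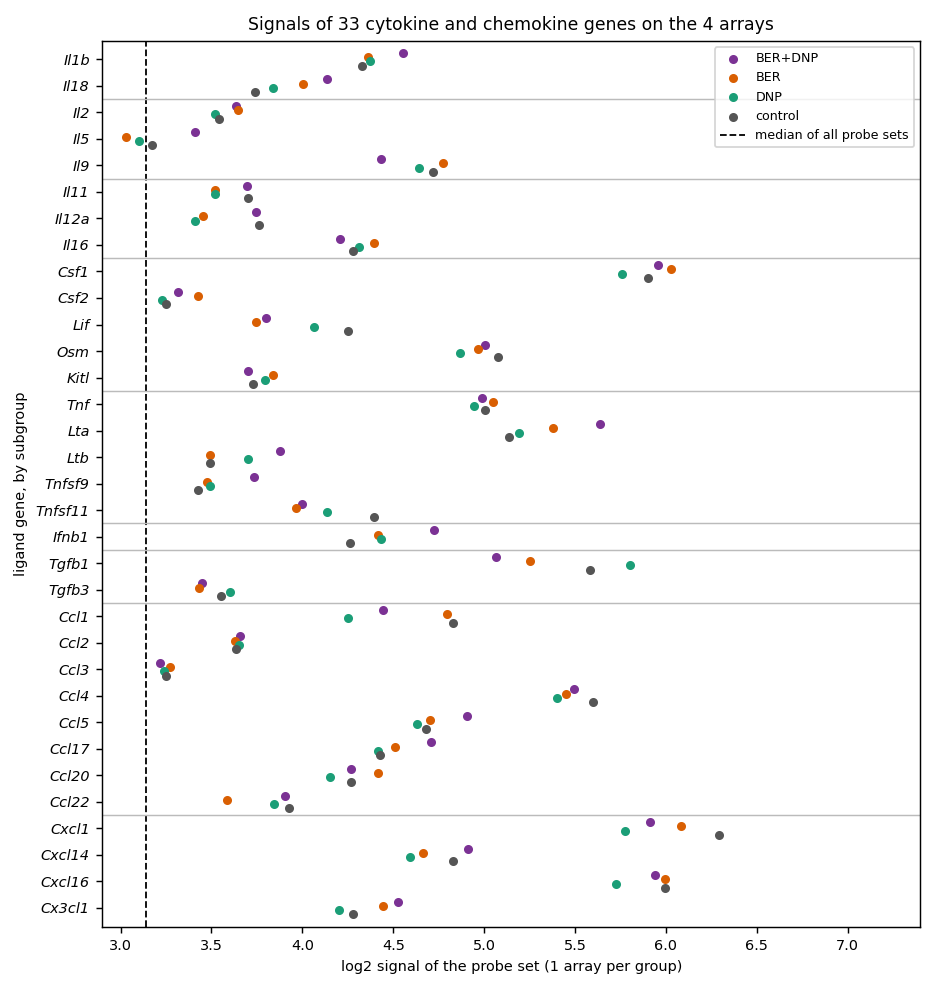
Log2 signals of the 33 ligand genes at or above the array median, 1 point per array (BER+DNP, BER, DNP, control), with grey lines between subgroups and a dashed line at the median of all probe sets. The points of most genes lie close together; Tgfb1 spans 0.74, from 5.06 in BER+DNP to 5.80 in DNP, and Ccl1 0.58.

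Promoter sequence is given for the 3 of the 33 genes with the widest signal range over the arrays, Tgfb1, Ccl1 and Cxcl1, and for Tnf, whose range was only 0.10. The lines hold the 250 bases before the annotated start, 5' to 3' on the gene's strand, from RefSeq on mouse build GRCm38.p6, and a promoter was matched by symbol for 42 of the 56 genes. Capitals mark matches, on either strand, to the letters TGANTCA (AP-1), to GGAAAA, the core of NFAT sites, to TATAAA, the TATA box, and to a form of the NF-kB site, which is the 10 bases in capitals in Cxcl1 with any base at the fifth. Matches can overlap.
Tgfb1, chr7:25686752-25687001, plus strand: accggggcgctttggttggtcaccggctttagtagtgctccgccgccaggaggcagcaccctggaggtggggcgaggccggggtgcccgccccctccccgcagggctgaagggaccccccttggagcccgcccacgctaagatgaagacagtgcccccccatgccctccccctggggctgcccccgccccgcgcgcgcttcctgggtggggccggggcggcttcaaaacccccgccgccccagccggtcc
Ccl1, chr11:82179813-82180062, minus strand: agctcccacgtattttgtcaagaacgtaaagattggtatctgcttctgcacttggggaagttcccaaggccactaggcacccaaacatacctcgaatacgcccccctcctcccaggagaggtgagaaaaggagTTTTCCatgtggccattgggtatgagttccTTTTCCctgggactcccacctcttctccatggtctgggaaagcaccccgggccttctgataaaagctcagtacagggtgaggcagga
Cxcl1, chr5:90890995-90891244, plus strand: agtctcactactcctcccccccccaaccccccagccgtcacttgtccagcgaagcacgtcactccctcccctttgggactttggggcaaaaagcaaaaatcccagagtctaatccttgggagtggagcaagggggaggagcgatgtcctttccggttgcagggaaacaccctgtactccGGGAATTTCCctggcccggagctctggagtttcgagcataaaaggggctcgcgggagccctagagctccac
Tnf, chr17:35202008-35202257, minus strand: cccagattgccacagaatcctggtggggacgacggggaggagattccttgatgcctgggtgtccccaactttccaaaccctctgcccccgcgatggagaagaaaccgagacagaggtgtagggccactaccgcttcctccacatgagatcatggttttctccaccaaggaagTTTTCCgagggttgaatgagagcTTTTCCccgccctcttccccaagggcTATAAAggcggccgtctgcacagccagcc

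In these windows Tgfb1 had no match to the 4 motifs. Ccl1 had the NFAT letters at 117 and 87 bases before the start, and Cxcl1 the NF-kB letters at 71 bases. Tnf had the NFAT letters at 78 and 55 bases and the TATA letters at 29 bases. Over the 42 ligand genes with an entry, the NF-kB letters occurred in 14.3% (0.414% of 27025 genes), the AP-1 letters in 21.4% (7.82%), the NFAT letters in 40.5% (22.9%) and the TATA letters in 40.5% (14.3%), all in windows of 250 bases. A gene with several annotated starts counted as a match if any of its windows held the letters. These are matches of letters and do not show binding of a factor.

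Chemokines of the CC class draw leukocytes through receptors of the CCR family. In BER+DNP against DNP, 7 of the 8 CC genes at or above the array median lay above 0 (45.4% of all genes), with a median of 0.11. In DNP against control 7 of the 8 lay below 0 (45.4% of all genes), with a median of -0.07. Some of these values were close to 0, such as Ccl2 at 0.005 in the first comparison and Ccl17 at -0.009 in the second. These genes are part of the 33, so the counts are not separate from those given above. Ccl1, which signals through the receptor CCR8, read 4.44 in BER+DNP, 4.79 in BER, 4.25 in DNP and 4.83 in control. Both antibody arrays read below both arrays without antibody: the difference was -0.58 in DNP against control, a 1.49-fold lower signal, and -0.35 in BER+DNP against BER. Ccl1 passed 1.5-fold in DNP against control under quantile normalization, with -0.59, but adding 32 to the linear signals moved the value to -0.24. Ccl1 has a single probe set.

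Ccl3 and Ccl4 encode inflammatory chemokines made by many activated leukocytes. Ccl4 read 5.50 in BER+DNP, 5.45 in BER, 5.40 in DNP and 5.60 in control. Ccl3 read 3.22 in BER+DNP, 3.27 in BER, 3.24 in DNP and 3.25 in control, close to the array median. Neither moved by more than 0.20 in any of the 4 comparisons. Ccl5, which attracts T cells and eosinophils, read 4.90 in BER+DNP, 4.70 in BER, 4.63 in DNP and 4.68 in control. Its signal was highest on the BER+DNP array, 0.27 above DNP and 0.20 above BER. Ccl2, a monocyte attractant, read 3.65 in BER+DNP, 3.63 in BER, 3.65 in DNP and 3.64 in control, the smallest range of the 33 genes.

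Ccl17 and Ccl22 share the receptor CCR4, and Ccl20 is the ligand of CCR6. Ccl17 read 4.71 in BER+DNP, 4.51 in BER, 4.42 in DNP and 4.43 in control, highest on the BER+DNP array, with a difference of 0.29 from DNP. Ccl22 read 3.90 in BER+DNP, 3.58 in BER, 3.84 in DNP and 3.93 in control. It was low on the BER array alone, by -0.34 against control, and BER+DNP lay 0.32 above BER. Ccl17 and Ccl22 thus had different orders over the arrays. Ccl20 read 4.27 in BER+DNP, 4.42 in BER, 4.15 in DNP and 4.27 in control. The signals of Ccl7, Ccl9 and Ccl11 (eotaxin) lay below the array median, between 2.26 and 2.82.

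Of the CXC and CX3C chemokines, 4 of 9 were at or above the array median. All 4 lay above 0 in BER+DNP against DNP (median 0.27), where 45.4% of all genes did. All 4 lay below 0 in DNP against control (median -0.25), where 45.4% of all genes did. They too are part of the counts over the 33 genes. Cxcl1, a neutrophil attractant, read 5.91 in BER+DNP, 6.09 in BER, 5.78 in DNP and 6.29 in control. The DNP array was lowest, by -0.51 against control. A second Cxcl1 probe set read 5.58 in BER+DNP, 5.91 in BER, 5.74 in DNP and 5.71 in control, and so gave 0.03 where the first gave -0.51, and -0.17 in BER+DNP against DNP, where the first gave 0.14. The suffixes of both probe sets mark them as able to cross-hybridise.

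Cxcl16 and Cx3cl1 (fractalkine) encode chemokines held on the cell membrane until cut off. Cxcl16 read 5.94 in BER+DNP, 6.00 in BER, 5.73 in DNP and 5.99 in control, so the DNP array stood below the other 3. Cx3cl1 read 4.53 in BER+DNP, 4.44 in BER, 4.20 in DNP and 4.28 in control. A second Cx3cl1 probe set of similar signal had its lowest reading in BER+DNP, at 3.99, against 4.33 in DNP, and so gave -0.34 where the first gave 0.33. One more, of lower signal, gave -0.40. The direction of Cx3cl1 in that comparison therefore depended on the probe set. Cxcl14, a chemokine of epithelia, read 4.91 in BER+DNP, 4.66 in BER, 4.59 in DNP and 4.83 in control, which put BER+DNP 0.32 above DNP and DNP -0.24 below control.

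Cxcl12, the ligand of CXCR4, fell just outside the counts: its mean of 3.137 was the nearest below the array median of 3.138, and that of Il5, at 3.18, the nearest above. Cxcl12 read 3.55 in BER+DNP, 2.87 in BER, 3.10 in DNP and 3.03 in control, and only its BER+DNP signal stood clearly above the array median. The difference of 0.68 between BER+DNP and BER (1.60-fold) was larger than that of any of the 33 genes in that comparison. The remaining Cxcl12 probe sets gave 0.21 and -0.07. The other 4 genes of this class, Cxcl2, Cxcl5, Cxcl9 and Cxcl10, had means between 1.67 and 2.45.

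**Figure D3:**
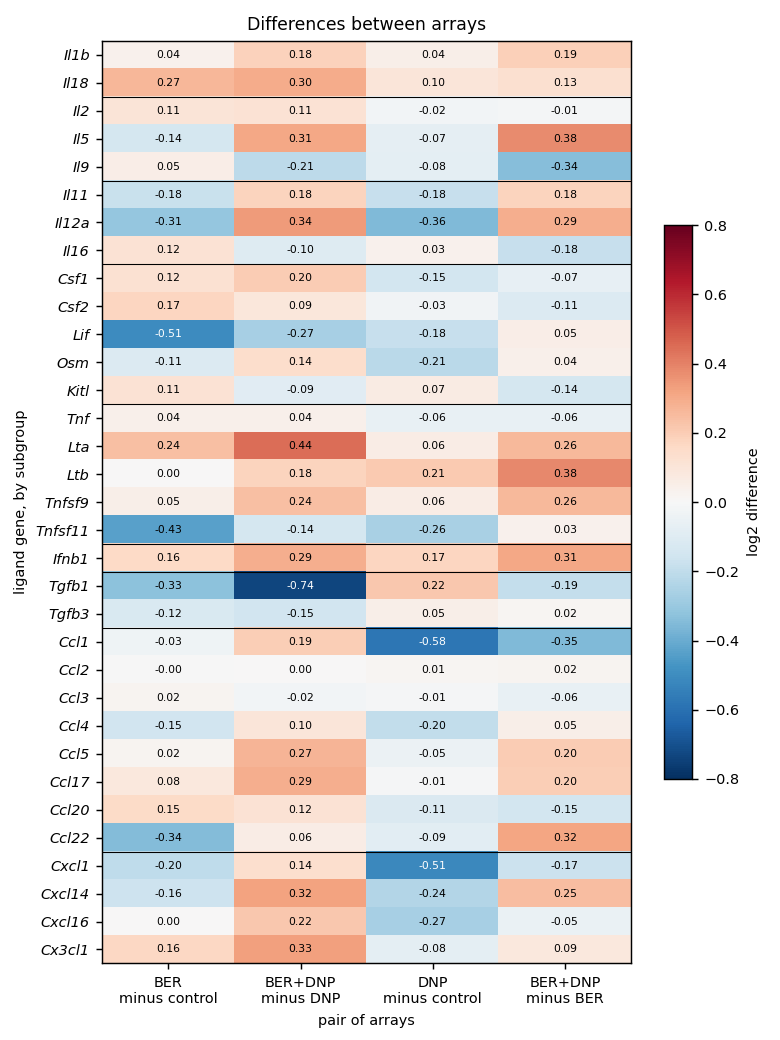
Log2 differences of the 33 ligand genes (rows, by subgroup) in the 4 pairs of arrays (columns), red above 0 and blue below 0, with 1 array per group. The column BER+DNP minus DNP is mostly red, with 25 genes above 0, and its lowest value is Tgfb1 at -0.74; DNP minus control is mostly blue, with 22 below 0, and its lowest value is Ccl1 at -0.58.

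Of the TNF family, 5 of 6 genes were at or above the array median. Tnf, the family's founding cytokine, read 4.99 in BER+DNP, 5.05 in BER, 4.95 in DNP and 5.01 in control, a range of 0.10 over the arrays. Lta, which encodes lymphotoxin alpha, read 5.64 in BER+DNP, 5.38 in BER, 5.19 in DNP and 5.13 in control. Its signal was highest with both treatments and lowest in control. The differences were 0.44 in BER+DNP against DNP, 0.50 in BER+DNP against control and 0.24 for berberine alone against control. The value of 0.44 was outside the middle 95% of all genes (-0.44 to 0.39). Ltb, whose product joins lymphotoxin alpha in a membrane complex, read 3.88 in BER+DNP, 3.49 in BER, 3.70 in DNP and 3.49 in control. It was higher on both antibody arrays, by 0.38 against BER and 0.21 against control. Lta and Ltb each have a single probe set.

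Tnfsf9, the ligand of the T cell costimulator 4-1BB, read 3.73 in BER+DNP, 3.47 in BER, 3.49 in DNP and 3.43 in control, so the combined treatment stood above the other 3 arrays. Tnfsf11 encodes RANKL, which drives the formation of osteoclasts, and read 4.00 in BER+DNP, 3.96 in BER, 4.14 in DNP and 4.40 in control. Control was highest, and berberine arrays differed by -0.14 with the antibody present and by -0.43 without it. Fasl, the ligand of the death receptor Fas, was below the array median, with signals between 2.16 and 2.53.

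The growth factor cytokines sustain blood cell lineages, and 5 of 7 were at or above the array median. Lif, which holds stem cells undifferentiated and signals through gp130, read 3.80 in BER+DNP, 3.74 in BER, 4.07 in DNP and 4.25 in control. Both berberine arrays read below both arrays without berberine, by -0.27 with the antibody present and by -0.51 without it. In BER against control, Lif was the only 1 of the 33 genes outside the middle 95% of all genes (-0.47 to 0.45), a range that leaves some genes outside by definition. A second Lif probe set, close to the array median, gave -0.27 with the antibody and -0.03 without it. Osm, a relative of Lif, did not share this order and read 5.01 in BER+DNP, 4.97 in BER, 4.87 in DNP and 5.08 in control.

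Csf1, the growth factor of macrophages, read 5.96 in BER+DNP, 6.03 in BER, 5.76 in DNP and 5.90 in control, lowest on the DNP array. Its 3 other probe sets at or above the array median gave -0.04, 0.15 and 0.51 in BER+DNP against DNP, where the first gave 0.20. Csf2 (GM-CSF), a classical product of activated mast cells, read 3.32 in BER+DNP, 3.42 in BER, 3.23 in DNP and 3.25 in control, close to the array median. Kitl encodes stem cell factor, the ligand of the mast cell receptor Kit, and read 3.70 in BER+DNP, 3.84 in BER, 3.79 in DNP and 3.73 in control, a range of 0.14. Csf3 and Tslp were below the array median, with means of 3.02 and 1.74.

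Of the interleukin 1 family, Il1b and Il18 were at or above the array median; both are made as precursors that caspase-1 cuts. Il18 read 4.14 in BER+DNP, 4.01 in BER, 3.84 in DNP and 3.74 in control. Each treatment alone and both together read above control, by 0.39 with both, 0.27 with berberine and 0.10 with the antibody. Il1b read 4.55 in BER+DNP, 4.36 in BER, 4.37 in DNP and 4.33 in control, with the combined treatment 0.19 above BER and 0.18 above DNP. Il1a and Il33, alarmins released from damaged cells, were below the array median.

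The lymphoid and type 2 interleukins include the best known products of mast cells, yet only Il2, Il5 and Il9 of 7 were at or above the array median. Il9, a growth factor of mast cells and T cells, read 4.43 in BER+DNP, 4.77 in BER, 4.64 in DNP and 4.72 in control. The combined treatment was lowest, by -0.34 against BER and -0.21 against DNP. Il5, the eosinophil growth factor, went the other way: it read 3.41 in BER+DNP, 3.03 in BER, 3.10 in DNP and 3.17 in control, but only the BER+DNP and control signals lay above the array median. Il2, the T cell growth factor, read 3.63 in BER+DNP, 3.65 in BER, 3.52 in DNP and 3.54 in control, slightly higher on both berberine arrays. Il3, Il4, Il13 and Il15 had means between 2.49 and 3.11, below the array median.

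Among the other interleukins, Il11, Il12a and Il16 were at or above the array median. Il12a encodes the p35 subunit of interleukin 12 and read 3.75 in BER+DNP, 3.45 in BER, 3.41 in DNP and 3.76 in control. Each treatment alone read lower than control and both together did not: the BER+DNP array lay -0.02 from control, the BER array -0.31 and the DNP array -0.36. Il11, a gp130 cytokine, had the same order with 3.70 in BER+DNP, 3.52 in BER, 3.52 in DNP and 3.70 in control. Il16, which attracts CD4 cells, read 4.21 in BER+DNP, 4.39 in BER, 4.31 in DNP and 4.28 in control, and its further probe sets at or above the array median gave 0.32 and -0.08 in BER against control, where the first gave 0.12. Il6, Il10, Il12b and Il17a were below the array median; the mean of Il6 was 1.68.

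Of the interferons, Ifnb1, the type I interferon of antiviral responses, read 4.73 in BER+DNP, 4.42 in BER, 4.43 in DNP and 4.26 in control. The combined treatment stood above the other 3 arrays, by 0.29 against DNP, 0.31 against BER and 0.47 against control. Ifng, the interferon of T and NK cells, was below the array median, with signals between 2.22 and 2.45.

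The 23 genes below the array median did not repeat the pattern of the 33. In BER+DNP against DNP, 10 of them lay above 0 and 11 below, with a median of 0.00, and in DNP against control 11 lay above and 10 below, with a median of 0.00. In DNP against control the extremes were Il17a at 0.58, on signals of 3.14 in DNP and 2.57 in control, and Cxcl2 at -0.58, on 1.82 and 2.40. Signals of this size do not show whether a transcript was present, since detection calls are not used here.

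For 6 of the 33 genes (Il16, Csf1, Lif, Tgfb1, Cxcl1 and Cx3cl1) 10 further probe sets were at or above the array median. They took the same direction as the probe set that stands for the gene in 5 of 10 cases in BER against control, 5 in BER+DNP against DNP, 5 in DNP against control and 4 in BER+DNP against BER. For these genes a direction read from 1 probe set is therefore a statement on that probe set. Another 9 probe sets of the 33 genes, of Il16, Kitl, Tnfsf11, Cxcl1, Cxcl14, Cxcl16 and Cx3cl1, lay below the array median and are not part of these counts.

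**Figure D4:**
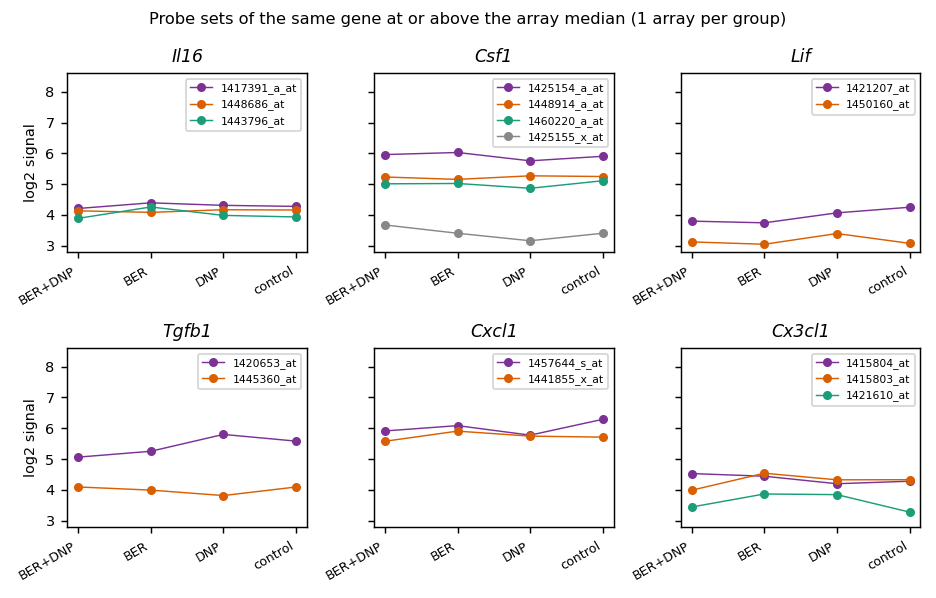
Log2 signals of every probe set at or above the array median for the 6 ligand genes with more than 1, on the 4 arrays (lines join the readings of 1 probe set and imply no order). The upper Tgfb1 probe set is lowest in BER+DNP, at 5.06, while the lower one reads 4.09 there and 3.81 in DNP; the 3 Cx3cl1 probe sets likewise differ in order.

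Of 66 listed receptors of these ligands, 61 had a probe set and 44 were at or above the array median. In BER against control, BER+DNP against DNP and BER+DNP against BER 0 passed 1.5-fold, with medians between -0.08 and 0.01. Of all genes, 1.99%, 1.21% and 0.914% passed it in these comparisons. In DNP against control 1 receptor gene was 1.5-fold higher, where 0.803% of all genes were. Tnfrsf1b, which encodes the second TNF receptor, was that gene and read 4.68 in BER+DNP, 4.18 in BER, 4.96 in DNP and 4.31 in control, with both antibody arrays above both others. Tgfbr1, a signalling receptor of the transforming growth factors beta, read 3.99 in BER+DNP, 4.22 in BER, 4.50 in DNP and 4.69 in control. Like the brighter Tgfb1 probe set it was lower with berberine in both comparisons, by -0.51 with and -0.47 without the antibody. Its partner receptor Tgfbr2 gave -0.30 and 0.34. Csf2ra, a chain of the GM-CSF receptor, gave 0.48 with the antibody present and -0.30 without it, and -0.55 in DNP against control. Ifnar1, of the type I interferon receptor, gave 0.36 and 0.04, and -0.56 in DNP against control. Il13ra2, an interleukin 13 receptor, gave 0.39 and 0.32, and 0.21 in DNP against control. The receptor genes named here were picked for large differences over the 4 comparisons.

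Of 26 listed genes of ligand processing, release and activation, 25 had a probe set and 18 were at or above the array median. Of these 18, 1, Nrros, was 1.5-fold lower in DNP against control, where 0.628% of all genes were. Nrros, which holds latent TGF-beta on myeloid cells, read 4.31 in BER+DNP, 4.26 in BER, 3.80 in DNP and 4.61 in control, lowest on the DNP array, with a DNP minus control difference of -0.81. The other 5 genes named were picked for large differences over the 4 comparisons, so their signs in the berberine comparisons are not counted here. The secretory fusion gene Snap23 gave 0.27 with the antibody present and -0.31 without it, its partner Vamp3 0.15 and -0.08, and the pore-forming Gsdmd 0.24 and -0.15. The metalloprotease gene Mmp2 gave -0.22 and 0.22, and the convertase gene Furin -0.22 and -0.34. Of 19 listed genes of cytokine mRNA decay, 17 had a probe set and 15 were at or above the array median. Of these 15, 1, Zc3h12a, was 1.5-fold higher in BER against control, where 1.01% of all genes were. Zc3h12a encodes the RNase regnase-1 and read 4.59 in BER+DNP, 4.96 in BER, 4.54 in DNP and 4.35 in control, highest on the BER array, 0.61 above control, with a BER+DNP minus BER difference of -0.37. Elavl1, whose product HuR stabilises cytokine mRNA, gave -0.53 in BER+DNP against DNP and -0.39 in BER against control. Zfp36, which speeds the decay of Tnf mRNA, gave -0.32 and 0.11, and 0.53 in DNP against control. In the same berberine comparisons the RNA-binding Tial1 gave -0.18 and 0.12, the decapping gene Dcp2 -0.14 and 0.37 and Rc3h2, a relative of roquin, 0.08 and -0.15.

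The 4 arrays correlated at 0.988 to 0.991 over 45037 probe sets. Of 12 markers of mast cells, 6 were at or above the array median (Fcer1g, Hdc, Tpsb2, Cma1, Mcpt4 and Gata2), while Kit, Fcer1a, Ms4a2, Cpa3, Tpsab1 and Mitf lay below it. Of the other marker lists, 5 of 8 leukocyte, 4 of 6 macrophage, 5 of 5 T cell, 7 of 8 epithelial, 6 of 8 fibroblast and 2 of 5 endothelial genes were at or above it. Of all genes 69.2% were, so these counts do not show which cell types were present. The common leukocyte gene Ptprc was below the array median, with a mean of 2.29. Ranked by mean signal among all genes, the mast cell markers had a median percentile of 28.9 and the leukocyte markers 38.4. It was 44.6 for macrophage, 92.4 for T cell, 89.4 for epithelial, 42.5 for fibroblast and 24.0 for endothelial markers. The mast cell identity is thus taken from the labels, and these markers do not establish it. In DNP against control, where the ligand median was -0.06, the median of the markers at or above the array median was 0.24 for mast cell, -0.18 for leukocyte, 0.04 for macrophage, 0.17 for T cell, -0.03 for epithelial, -0.04 for fibroblast and -0.17 for endothelial genes. The mast cell protease gene Mcpt4 was 1.5-fold higher there, by 0.60, where 0.803% of all genes were, while Hdc gave -0.10. The mast cell markers below the array median were mixed in DNP against control. Fcer1a gave -0.17, Ms4a2 -0.31 and Tpsab1 -0.35, while Cpa3 gave 0.65, Mitf 0.18 and Kit 0.06. In BER+DNP against DNP the medians were -0.10 for mast cell and -0.08 for leukocyte genes and between 0.01 and 0.09 for the other lists. Their part in the ligand differences was not tested.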

How the data were processed

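The authors' deposited table came from Affymetrix Expression Console, per the submitters' processing notes. Its version, the summary algorithm and the background correction were not given in the sources used here. The deposited values were taken as log2 signals, since they run from 1.05 to 13.96, and their array medians lie close together, so they were used as deposited. Each group is 1 array.

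The 64 control probe sets were set apart from the 45101. A platform annotation of 2016 gave 1 symbol to 34945 of the other 45037, several to 932 and none to 9160, and only those with 1 symbol name a gene here. All 56 ligand genes matched RefSeq (GRCm38.p6) by identifier and symbol. A gene was read by its brightest probe set, and genes with a mean log2 signal of at least 3.138, the median of the probe sets, were counted. Differences of log2 signals between 2 arrays were counted past 1.5-fold, beside the share of all genes; no test was run, and an additive model of berberine and antibody, with 1 residual degree of freedom, was not fitted. Arrays are named as their labels give them.

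Array values are given for each ligand gene at or above the array median and, below it, for Cxcl12, Il17a and Cxcl2 (for Il17a and Cxcl2 on 2 arrays), with differences of Il4, chosen after their values were seen; of the receptor, processing and decay lists up to 6 genes with the largest mean difference among those at or above the array median were named. The members and lists were chosen with earlier results of these data known. Alternatives were the median of a gene's probe sets, no cross-hybridising probe sets, no filter or one at the 75th percentile, quantile normalization and 32 added to the signals. The steps, run in Python 3.11.15 with pandas 2.3.3 and numpy 2.4.6, were tested on simulated data.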

Additional observations from a re-analysis of the deposited data

Results flagged for a closer look

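Il12a had differences of opposite sign, each over 1.2-fold, in both sets of comparisons: 0.34 (BER+DNP minus DNP) and -0.31 (BER minus control) for berberine, and for the antibody 0.29 in BER+DNP against BER and -0.36 in DNP against control. Il4, below the array median, gave -0.29 in BER+DNP against BER and 0.40 in DNP against control. With 1 array per group these differences between comparisons were not tested.

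A further Cx3cl1 probe set, which the counts do not use, gave 0.59 in BER against control, on signals of 3.87 in BER and 3.28 in control.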

How the results depend on the processing

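The median difference of the ligand genes kept its sign in all 4 comparisons under the 6 alternatives, lying between 0.05 and 0.20 in BER+DNP against DNP, -0.08 and -0.02 in DNP against control, 0.01 and 0.03 in BER against control and 0.01 and 0.05 in BER+DNP against BER. Adding 32 to the signals cannot change the sign of a difference, so that alternative could change only the size of these medians. The share of ligand genes above 0 in BER+DNP against DNP, examined under the alternatives only after the data had been seen, was lowest with no filter, 62.5% of 56 genes against 46.2% of all genes, and highest with the filter at the 75th percentile, 87.5% of 16 against 42.9%. With that filter 16 ligand genes were left. The count of genes 1.5-fold apart for BER+DNP minus DNP became 0 when a gene was read as its median probe set and also when 32 was added, 1 in DNP against control with quantile normalization (Ccl1) and 1 in BER+DNP against BER with no filter (Cxcl12). Under each of 4 alternatives, 132 differences of single genes were examined. Of these, 7 moved by over 1.2-fold with the median of all probe sets, 6 with 32 added and 0 with quantile normalization. Genes of a single probe set could not move with the median. That left Il16, Csf1, Lif, Kitl, Tnfsf11, Tgfb1, Cxcl1, Cxcl14, Cxcl16 and Cx3cl1 able to move there. Without cross-hybridising probe sets 1 difference moved, that of Cxcl1 in DNP against control. Cxcl1 was the only counted gene then read by a different probe set, so no other gene could move. No paired analysis was possible because the groups share only 1 replicate number; an additive model of berberine and antibody over the 4 arrays was not fitted. Of the 56 ligand genes 23 read below the array median, and detection calls are not used here, so absence of a difference is not shown for dim genes.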
